A study of Homo sapiens with 8 samples.

Results

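RNA-seq counts of 4 libraries labelled PC3 were set against those of 4 libraries labelled DU145, which are all 8 libraries of the series, across the 33221 genes of the deposited table. PC3 and DU145 are prostate cancer cell lines, derived from a bone and a brain metastasis. The PC3-labelled libraries came from cells that received CRISPR/Cas9 lentivirus directed at EphA2 (PC3 EphA2 KO) or lentivirus with a non-targeting guide (PC3 control), grown in Ham's F-12K medium and taken after 72 h. The DU145-labelled libraries came from wild-type cells lipofected with a plasmid that expresses EphA2 (DU145 EphA2 OE) or with its control plasmid (DU145 control), grown in DMEM and taken after 48 h. Each of the 4 groups held 2 libraries, all serum-fed, and the labels do not say whether replicates were separate cultures or whether knockout cells were cloned. Line, carrier of the construct, medium and time changed together between the labels and cannot be told apart. The table names its control columns in words the labels do not repeat, and they were placed with the lines by convention.

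These lines are known for separate genomes. PC3 carries a homozygous deletion of CTNNA1, the alpha-catenin of adherens junctions, while DU145 is known for lesions of RB1, STK11, CDKN2A and BAX, not all of which remove the transcript. Simple epithelia such as the luminal layer of the prostate build their filaments from KRT8 and KRT18. The epidermis uses KRT5 with KRT14 in its basal layer and KRT1 with KRT10 above it, and its dying outer cells cross-link involucrin, loricrin and small proline-rich proteins into a cornified envelope.

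Total counts ran from 57571919 to 60951530 per library, so that 3 counts, used here as the floor, corresponded to 0.0491 to 0.0526 CPM (counts scaled by the TMM-corrected library total). Genes were tested in edgeR with a quasi-likelihood test on 4 group means, and the average of the 2 PC3-labelled groups was set against the average of the 2 DU145-labelled groups. A gene was called at a Benjamini-Hochberg adjusted p under 0.05 over the 22727 genes tested, and was said to separate the labels where, in addition, all 4 libraries of one label lay above all 4 of the other. Log2 differences are PC3-labelled minus DU145-labelled. The p-values thus rest on how far replicate libraries of a group lay apart, a spread that may be technical.

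Few genes separated the labels in edgeR, and 7 of the 11 that did were genes of stratified epithelia, with S100A8 also made by neutrophils. Of these 7, 5 had 0 counts in every PC3-labelled library and passed the filter on low counts through the DU145 label alone. Of 22727 genes tested, 16 were called (0.0704%), 5 higher (0.022%) and 11 lower (0.0484%) in PC3-labelled libraries, while 1595 (7.02%) lay at an unadjusted p under 0.05, 792 (3.48%) higher and 803 (3.53%) lower. The labels did not overlap in 887 genes (3.9%), of which 428 (1.88%) lay higher and 459 (2.02%) lower in PC3-labelled libraries. The 11 genes that were both called and free of overlap (0.0484%) were BMF, higher, and KRT1, KRT6A, KRT5, RPE, ARMCX5-GPRASP2, SPRR1B, KRT13, CALML5, PALM2AKAP2 and S100A8, lower in PC3-labelled libraries. The number of calls depended on the tool, with 222 called and 138 of these without overlap in DESeq2, and on single libraries, with 14 to 45 called and 9 to 26 of these without overlap when 1 was left out (45 without DU145 EphA2 OE replicate 1). The same fit called 6 genes (0.0264%) between EphA2 KO and control within the PC3-labelled libraries and 9 genes (0.0396%) between EphA2 OE and control within the DU145-labelled ones, against 190 and 309 in DESeq2, and the overexpression count was 376 without DU145 EphA2 OE replicate 1. With each of the 8 libraries left out in turn, KRT1, KRT6A, KRT5 and RPE kept their calls, and the other 7 lost the call without at least 1 library.

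KRT1, the type II keratin of differentiated epidermis (ENSG00000167768, GRCh38 chr12:52674736-52680407, minus strand), had 0 counts in all 4 PC3-labelled libraries. It stood at 10.4 and 11.9 CPM in DU145 EphA2 OE and at 13.1 and 8.95 CPM in DU145 control. The groups did not overlap, and against the floor of 3 counts per library KRT1 was at least 223-fold lower in PC3-labelled libraries (edgeR adjusted p = 0.00382). A gene with 0 counts under one label passes the filter on low counts through the other label alone. With no filter, KRT1 (edgeR adjusted p = 0.00549), KRT6A (0.0109), KRT5 (0.0112), SPRR1B (0.0326) and CALML5 (0.0477) were called as well. S100A8 (0.068), BMF (0.068) and PALM2AKAP2 (0.0622) lost their calls with no filter. KRT6A, a keratin of wounded and fast-growing epidermis, had 0 counts in every PC3-labelled library, against 4.35 and 3.71 CPM in DU145 EphA2 OE and 4.28 and 4.65 CPM in DU145 control. KRT5, the basal keratin, also had 0 counts in every PC3-labelled library, against 4.20 and 4.33 CPM in DU145 EphA2 OE and 3.20 and 4.13 CPM in DU145 control. Both were free of overlap, at least 85.1-fold (KRT6A, adjusted p = 0.0064) and at least 79.6-fold (KRT5, adjusted p = 0.00657) lower in PC3-labelled libraries. Within the DU145-labelled libraries the log2 difference between EphA2 OE and control was 0.02 for KRT1, -0.15 for KRT6A and 0.22 for KRT5, with 0 of the 3 called (adjusted p = 0.995, 0.932 and 0.897).

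SPRR1B, a small proline-rich precursor of the cornified envelope, and CALML5, a calmodulin-like protein of skin, completed the called genes with 0 counts throughout the PC3-labelled libraries. SPRR1B stood at 1.67 to 2.61 CPM in the 4 DU145-labelled libraries and was at least 44.4-fold lower in PC3-labelled ones (adjusted p = 0.0219). CALML5 stood at 1.19 to 1.69 CPM in the DU145-labelled libraries and was at least 29.7-fold lower in PC3-labelled ones (adjusted p = 0.0344). S100A8, a calcium-binding subunit of calprotectin made by neutrophils and stressed keratinocytes, had 4 counts in PC3 control replicate 1 and 0 in the other PC3-labelled libraries, against 124 to 174 counts in the DU145-labelled ones (adjusted p = 0.0461). KRT13, a keratin of internal stratified epithelia such as the oesophagus, was the one called keratin with counts under both labels, 2 to 10 in PC3-labelled libraries and 78 to 190 in DU145-labelled ones (log2 difference -4.55, SE 0.45, adjusted p = 0.0248). The call was lost for SPRR1B without DU145 control replicate 2 (adjusted p = 0.0679), for KRT13 without any 1 of the 4 PC3-labelled libraries, for CALML5 without any 1 of the 4 DU145-labelled ones, and for S100A8 without any library but the 2 of PC3 control, with adjusted p of at most 0.0901 in each case.

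Promoters of 2 of these genes were at hand from RefSeq (GRCh38.p14), 250 bases before to 50 after the start, and are shown because the genes stood at 0 together under one label. Capitals mark TGANTCA, the motif bound by AP-1 factors, searched on both strands. It occurs in 7.71% of the 35116 promoters of the same length. KRT5 held none and SPRR1B held 2, and a match is a description of the window only.
KRT5, chr12:52520345-52520644, minus strand: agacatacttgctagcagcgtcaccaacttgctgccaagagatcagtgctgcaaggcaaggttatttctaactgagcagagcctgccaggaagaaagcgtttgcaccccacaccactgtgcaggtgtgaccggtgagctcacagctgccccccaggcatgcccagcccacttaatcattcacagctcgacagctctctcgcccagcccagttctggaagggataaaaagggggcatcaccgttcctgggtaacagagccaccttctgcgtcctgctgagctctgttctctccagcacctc
SPRR1B, chr1:153030953-153031252, plus strand: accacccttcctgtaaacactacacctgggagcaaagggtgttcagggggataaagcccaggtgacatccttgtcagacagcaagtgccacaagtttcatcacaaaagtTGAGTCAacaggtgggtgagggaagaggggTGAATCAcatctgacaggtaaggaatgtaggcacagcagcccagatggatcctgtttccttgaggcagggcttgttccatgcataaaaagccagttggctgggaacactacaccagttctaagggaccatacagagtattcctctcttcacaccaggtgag

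By counts alone, 25 genes had at least 10 counts in each DU145-labelled library and at most 3 in each PC3-labelled one, and 0 genes showed the reverse. Of the 25, 24 had 0 counts in all 4 PC3-labelled libraries, 18 belonged to the lists of basal and squamous, cornification or keratinization genes, and 5 were called. These low genes entered the test through the DU145-labelled libraries alone, so their difference was set by the filter and by this rule and is given as a description. The 5 called ones are those whose calls with no filter are given above. Together they summed to 0, 0, 3 and 0 counts in the PC3-labelled libraries, against 1948 and 2061 counts in DU145 EphA2 OE and 2088 and 1956 in DU145 control. In CPM the DU145-labelled sums were 34.1, 34.7, 36.3 and 33.7, and the EphA2 OE and control libraries overlapped. Their roles ran through the life of a keratinocyte. KRT6B, KRT6C, KRT4 and KRT17 are further keratins, IVL (involucrin), LORICRIN, SPRR1A, SPRR2A, SPRR2E, SPRR2G and LCE3D are envelope proteins, CASP14 is the caspase of cornification, KLK7 is the protease of shedding, and S100A7 (psoriasin), SERPINB3, LGALS7B (galectin 7) and TRIM29 are other proteins of stratified epithelia. HOPX, LY6G6C and A2ML1 were the remaining members, and KRT1 was the highest at a mean of 11.1 CPM while SPRR2G was the lowest at 0.254 CPM in DU145-labelled libraries.

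**Figure D1:**
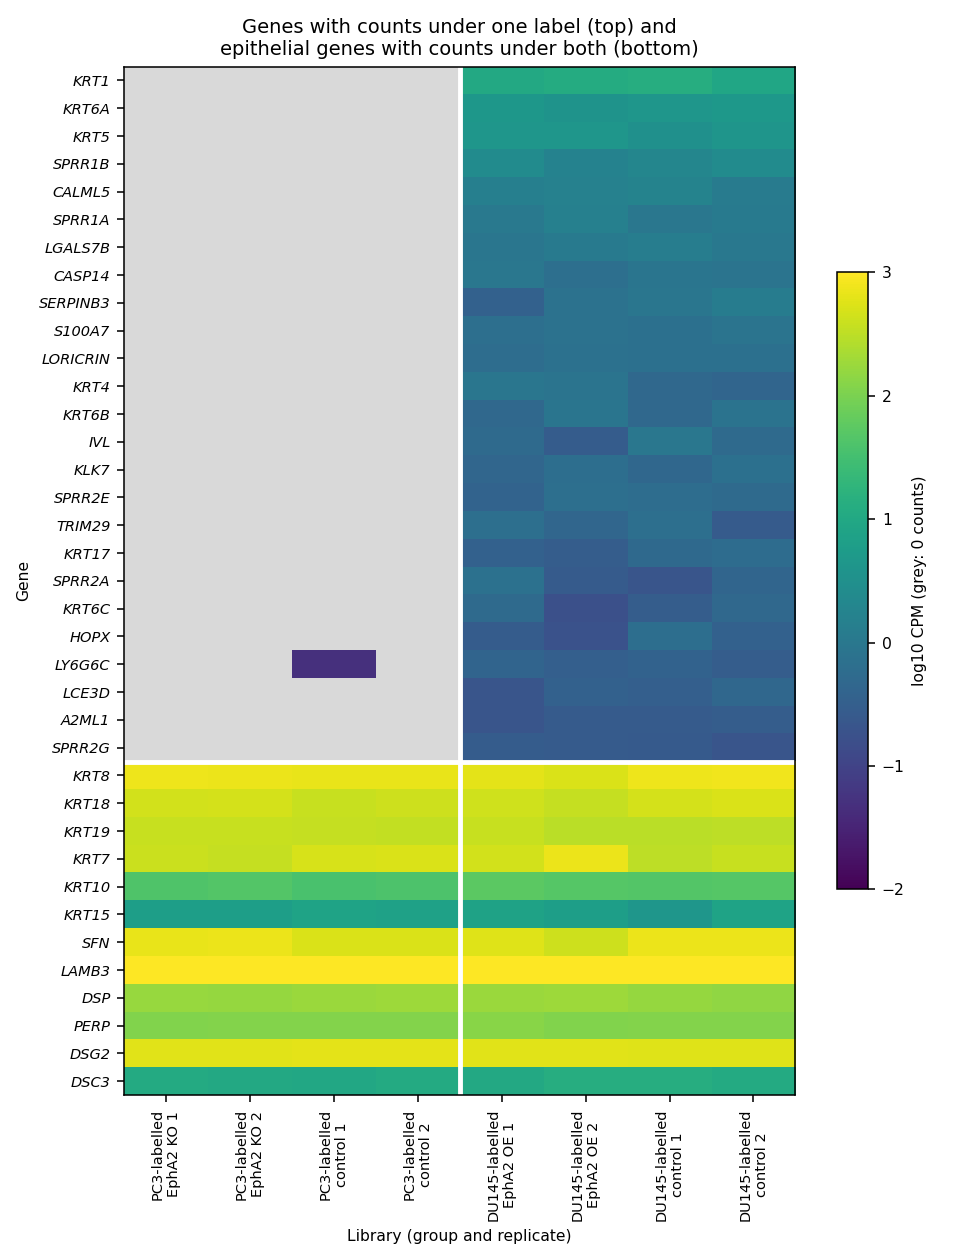
Heat map of log10 CPM for each gene (rows) in each of the 8 libraries (columns, PC3-labelled on the left and DU145-labelled on the right), with grey for 0 counts. The top 25 rows are the genes with counts under one label, all grey in the PC3-labelled columns except LY6G6C with 3 counts in PC3 control replicate 1, and the lower rows are 12 epithelial genes shown for comparison, with counts under both labels.

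Of the 25 genes, 15 lay in either of 2 stretches of the genome, and the other 10 lay elsewhere on 8 chromosomes. On chromosome 1, 9 of them fell within 881 kb (chr1:152579381-153460651), the stretch known as the epidermal differentiation complex. All 14 genes tested in that stretch lay lower in PC3-labelled libraries with no overlap, against 2.02% of all genes tested. For 9 of the 14 this follows from the rule that picked them, and these genes also set the ends of the stretch. The other 5 were S100A8, S100A9, SPRR3, SPRR2B and SPRR2D. S100A8, with at most 4 counts in any PC3-labelled library, also passed the filter on low counts through the DU145 label alone. The number without overlap in this stretch is thus a description and not a test. On chromosome 12, 6 of the 25 fell within 367 kb of the type II keratin cluster (chr12:52446651-52814116), where KRT2 and KRT3 were the other 2 genes tested and overlapped between labels. KRT6A, KRT6B and KRT6C are near-identical and neighbouring, so the division of counts among them is uncertain.

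Partners of the called keratins differed in how far they followed. KRT14, the partner of KRT5, had 0 counts in 3 PC3-labelled libraries and 12 in PC3 EphA2 KO replicate 2, against 173 to 279 in DU145-labelled ones, without a call (adjusted p = 0.0917). KRT16, the partner of KRT6A, had 0 to 11 counts in PC3-labelled libraries against 96 to 165 in DU145-labelled ones (adjusted p = 0.119). KRT10, the partner of KRT1, was plentiful under both labels, at 36.6 to 45.0 CPM in PC3-labelled libraries and 45.5 to 54.8 CPM in DU145-labelled ones, which do not overlap. TP63, the master regulator of basal keratinocytes, had 0, 8, 0 and 0 counts in PC3-labelled libraries against 0, 16, 8 and 8 in DU145-labelled ones and was too low to be tested. In bulk RNA, few cells with a high level and many cells with a low level cannot be told apart.

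Over the whole list of basal and squamous genes, 11 of 26 had at most 3 counts in every PC3-labelled library and 0 of 26 had so few in every DU145-labelled one. For the cornification genes of the deposited annotation these numbers were 31 and 1 of 75. How many of all genes were as low under either label was not counted, so these numbers are a description. Of the 24 basal and squamous genes tested, 5 were called lower and 0 higher in edgeR (16 lower and 0 higher in DESeq2). Of the 60 cornification genes tested, 4 were called lower and 0 higher in edgeR (21 lower and 2 higher in DESeq2). Without overlap, 25 of these 60 lay lower and 1 higher, against 2.02% lower and 1.88% higher over all genes tested. Members near 0 counts under the PC3 label passed the filter through the DU145 label alone, so this number is a description. Over all genes tested, edgeR called 0.0484% lower and 0.022% higher. The summed level of both lists overlapped between labels, at 2011 to 2693 CPM in PC3-labelled libraries against 2460 to 2787 CPM in DU145-labelled ones for basal and squamous genes, and at 3793 to 3961 CPM against 3796 to 3919 CPM for cornification genes. These sums rest on genes plentiful under both labels, such as LAMB3 (a laminin chain), SFN (stratifin), KRT8 and DSG2 (a desmosomal cadherin). The simple-epithelial keratins KRT8, KRT18, KRT19 and KRT7 were not called, with log2 differences of 0.11, -0.07, 0.20 and -0.04 (adjusted p = 0.794 to 0.984). Whether the epidermal counts came from the labelled cells was not tested.

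RPE and BMF were the called genes of wider use that separated the labels at moderate size. RPE, an epimerase of the pentose phosphate pathway (chr2:210002565-210022259, plus strand), stood at 16.8 and 15.7 CPM in PC3 EphA2 KO and 23.3 and 21.2 CPM in PC3 control, against 45.2 and 50.8 CPM in DU145 EphA2 OE and 41.0 and 35.4 CPM in DU145 control. The labels did not overlap, and RPE was lower in PC3-labelled libraries with a log2 difference of -1.17 (SE 0.09, adjusted p = 0.0111). Between the control groups alone its log2 difference was -0.78, without a call (adjusted p = 0.173). BMF, a BH3-only protein that promotes apoptosis, stood at 36.7 and 33.8 CPM in PC3 EphA2 KO and 18.6 and 17.2 CPM in PC3 control, against 12.5 and 11.6 CPM in DU145 EphA2 OE and 15.3 and 12.2 CPM in DU145 control. The knockout libraries were the highest and PC3 control lay only a little above the DU145-labelled libraries (log2 difference 0.97, SE 0.11, adjusted p = 0.0473). The call of BMF was lost when any library but DU145 control replicate 1 was left out (adjusted p at most 0.128), and between the control groups alone its log2 difference was 0.39 (adjusted p = 0.53).

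PALM2AKAP2, which joins paralemmin 2 to an anchor protein of protein kinase A, was uneven within the PC3-labelled libraries. It stood at 130 and 263 CPM in PC3 EphA2 KO and 41.9 and 52.4 CPM in PC3 control, against 336 and 343 CPM in DU145 EphA2 OE and 367 and 350 CPM in DU145 control. The labels did not overlap (log2 difference -1.86, SE 0.21, adjusted p = 0.046), but the call was lost without any 1 library except the knockout pair (adjusted p at most 0.114), and between EphA2 KO and OE alone the log2 difference was -0.79 (adjusted p = 0.606). ARMCX5-GPRASP2 (ENSG00000286237, chromosome X), a readthrough transcript, stood at 0.0164 to 0.0991 CPM in PC3-labelled libraries against 0.944 to 8.77 CPM in DU145-labelled ones (log2 difference -6.75, SE 0.62, adjusted p = 0.0202), and it lost the call without either knockout library (adjusted p at most 0.0724). It shares its strand and position with GPRASP2, BHLHB9 and a second entry of the same name. The sum of the 4 overlapping entries was 10.3 to 15.4 CPM in PC3-labelled libraries and 8.38 to 14.0 CPM in DU145-labelled ones, with means of 12.1 and 12.2 CPM. BHLHB9 itself lay the other way, at 5.68 to 7.45 CPM in PC3-labelled libraries against 0.0522 to 3.76 CPM in DU145-labelled ones, so the entries of the locus differed in opposite directions while their sums overlapped.

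The other 5 called genes did not separate the labels, because 1 of the 4 groups stood apart from the other 3. UHMK1, a kinase of the cell cycle inhibitor p27, stood at 327 and 314 CPM in PC3 EphA2 KO and 377 and 374 CPM in PC3 control, against 86.4 and 90.4 CPM in DU145 EphA2 OE and 364 and 371 CPM in DU145 control. EPDR1, an ependymin-related secreted protein, was low in the same group, at 95.2 to 108 CPM in PC3-labelled libraries against 32.3 and 31.6 CPM in DU145 EphA2 OE and 108 and 114 CPM in DU145 control. LASP1, an actin-binding LIM and SH3 protein, was low in DU145 control only, at 482 to 546 CPM in PC3-labelled libraries against 557 and 492 CPM in DU145 EphA2 OE and 152 and 134 CPM in DU145 control. MAPK14, the p38 alpha kinase, was high in PC3 control, at 43.8 and 39.4 CPM in PC3 EphA2 KO and 109 and 99.7 CPM in PC3 control, against 34.2 to 40.0 CPM in DU145-labelled libraries. STX6, a syntaxin of the trans-Golgi, was low in PC3 control, at 90.2 and 86.5 CPM in PC3 EphA2 KO and 28.0 and 30.4 CPM in PC3 control, against 76.5 to 85.4 CPM in DU145-labelled libraries. In each, the average of 2 groups carried the one that stood apart. With 1 library left out, UHMK1 and LASP1 kept their calls, EPDR1 lost its call without PC3 control replicate 1 (adjusted p = 0.0546), and MAPK14 and STX6 lost theirs without any library outside DU145 EphA2 OE (adjusted p at most 0.0901 for MAPK14 and 0.121 for STX6). The knockout and overexpression responses differed in 7 of all genes tested (0.0308%). When the 4 libraries of each label were fitted as 1 group, 13 genes were called, all 13 lower in PC3-labelled libraries and without overlap, and 0 of these 5 were among them.

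**Figure D2:**
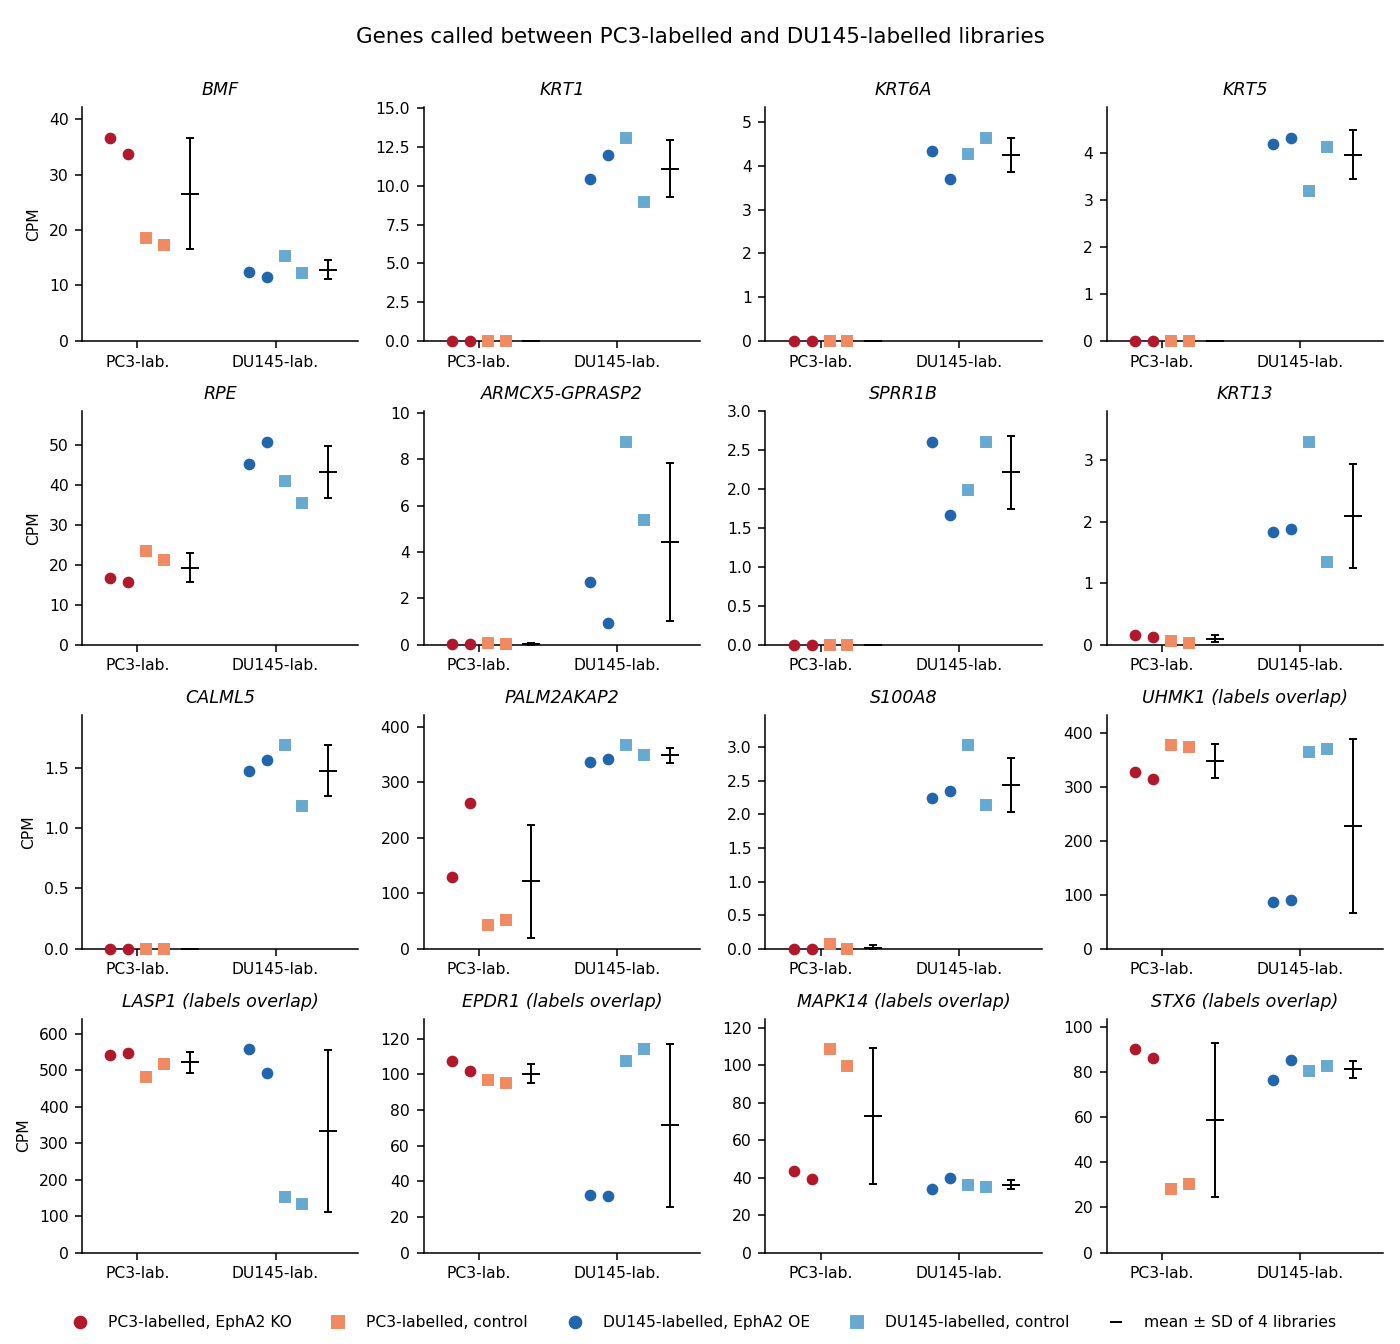
CPM (linear axes from 0) of the 16 called genes in each library, PC3-labelled on the left and DU145-labelled on the right of each panel, with the mean and SD of 4 libraries in black. In the 11 genes without a note the labels do not overlap, and in the last 5 a single group stands apart.

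Genes known to be altered in the lines, as far as they are given here, did not separate the labels. CTNNA1, deleted in the PC3 line, had 22247 to 28671 counts in PC3-labelled libraries against 22947 to 28452 in DU145-labelled ones, with overlap (log2 difference -0.02, SE 0.06, adjusted p = 0.983). The counts of CTNNA1 go against the PC3 label, so the libraries are named by their labels throughout. RB1, STK11, CDKN2A and BAX overlapped too, with log2 differences of 0.27, -0.07, 0.08 and 0.11 and adjusted p of 0.736 to 0.953. GSTM1, which many human genomes lack, stood at 22.6 to 31.0 CPM in PC3-labelled libraries and 21.0 to 33.7 CPM in DU145-labelled ones.

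**Figure D3:**
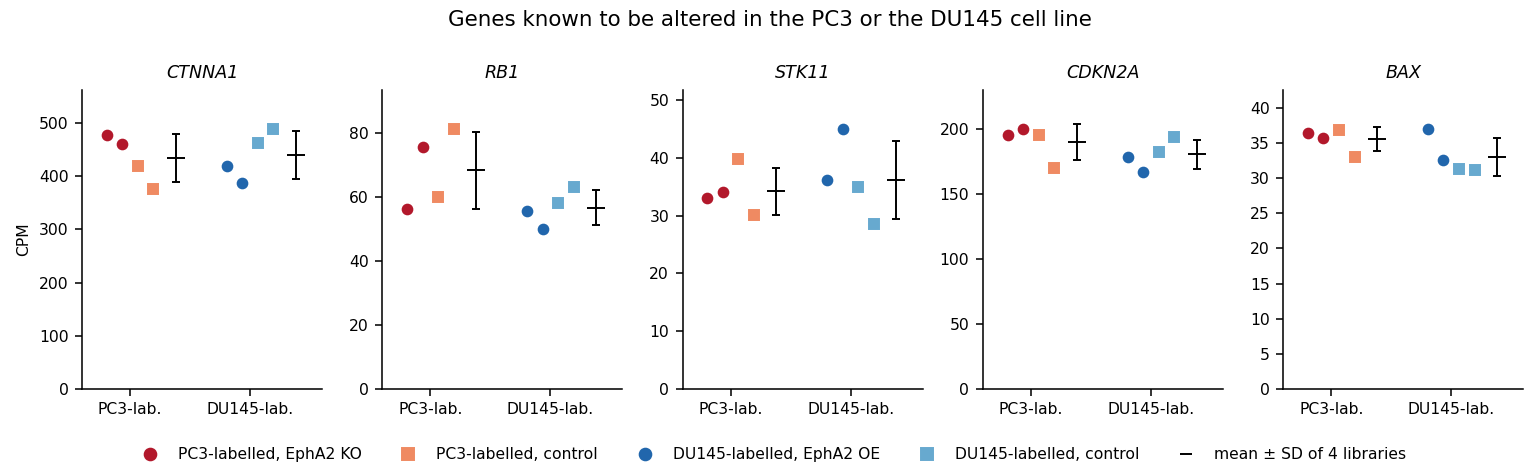
CPM (linear axes from 0) of 5 genes known to be altered in the PC3 or the DU145 cell line, one point a library, PC3-labelled on the left of each panel, with the mean and SD of 4 libraries in black. In all 5 genes the labels overlap, and CTNNA1 has plentiful counts under both.

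Below the threshold, the next genes by p among those higher in PC3-labelled libraries without overlap included CDH1, RBM47, NEAT1, SMN2, NES, DIAPH2-AS1, PPWD1 and SESN3. CDH1 (E-cadherin), which joins epithelial cells, stood at 210 and 200 CPM in PC3 EphA2 KO and 147 and 153 CPM in PC3 control, against 111 and 101 CPM in DU145 EphA2 OE and 146 and 139 CPM in DU145 control. The control groups averaged 149.9 CPM under the PC3 label and 142.5 CPM under the DU145 label, and the manipulated groups lay on either side (log2 difference 0.51, SE 0.07, adjusted p = 0.067). EPHA2 itself, the receptor that the constructs target, stood at 203.8 and 185 CPM in PC3 EphA2 KO and 265 and 269 CPM in PC3 control, against 343 and 386 CPM in DU145 EphA2 OE and 293 and 296 CPM in DU145 control. It did not overlap between labels and lay lower in PC3-labelled libraries (log2 difference -0.53, SE 0.07, adjusted p = 0.067), with the manipulated groups at the extremes. Between EphA2 KO and OE alone both were called, CDH1 with a log2 difference of 0.95 (adjusted p = 0.023) and EPHA2 with -0.91 (adjusted p = 0.0306). That comparison joins the labels with both manipulations. Within the labels neither gene was called in edgeR. For EphA2 KO against control the adjusted p was 0.415 for both, and for EphA2 OE against control 0.368 for CDH1 and 0.458 for EPHA2.

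RBM47, an RNA-binding regulator of splicing, was even within each label, at 22.4 to 27.9 CPM in PC3-labelled libraries against 11.8 to 16.3 CPM in DU145-labelled ones (log2 difference 0.84, SE 0.11, adjusted p = 0.067). NES, the filament protein nestin, PPWD1, a cyclophilin of the spliceosome, and SESN3, a stress-induced sestrin, had log2 differences of 0.55 to 0.67 (adjusted p = 0.202 to 0.259). NEAT1, the RNA scaffold of paraspeckles, stood at 39.1 to 70.8 CPM in PC3-labelled libraries against 35.4 to 35.8 CPM in DU145-labelled ones (log2 difference 0.61, adjusted p = 0.128). SMN2, the near-identical copy of the survival motor neuron gene SMN1, stood at 21.8 to 25.5 CPM in PC3-labelled libraries against 8.98 to 13.9 CPM in DU145-labelled ones (log2 difference 1.07, adjusted p = 0.132). How the counting divided reads between the copies is uncertain, and the sum of SMN1 and SMN2 averaged 60.5 CPM in PC3-labelled and 57.4 CPM in DU145-labelled libraries. DIAPH2-AS1, an antisense RNA, was low throughout, at 0.4 to 0.883 CPM in PC3-labelled libraries against 0 to 0.333 CPM in DU145-labelled ones.

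With a mean of at least 1 CPM, the largest differences towards PC3-labelled libraries without overlap were much smaller than those of the keratins. MAOB, a monoamine oxidase, BHLHB9, LINC01128, a long noncoding RNA, C20orf204 and AL121845 had log2 differences of 1.31 to 1.36, and 0 of the 5 were called (adjusted p = 0.31 to 0.79). LINC01128 stood at 24.6 to 27.2 CPM in PC3-labelled libraries against 20.8 CPM in DU145 EphA2 OE replicate 1 and 6.54 to 8.07 CPM in the other DU145-labelled libraries. No gene was at or above 1 CPM in all 4 PC3-labelled libraries and under 0.1 CPM in all 4 DU145-labelled ones, while 6 genes showed the reverse, namely KRT1, KRT6A, KRT5, SPRR1B, CALML5 and S100A8. In the DU145-labelled libraries KRT1 took 37.8% to 48.0% of the counts of those 6 genes and KRT5 11.7% to 17.5%. Per length the order was different, with KRT1 at 3.75 FPKM, SPRR1B at 2.99 FPKM, S100A8 at 2.29 FPKM and KRT5 at 0.792 FPKM as means of the 4 DU145-labelled libraries.

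Other gene lists gave no call in edgeR between the labels. Of the prostate lineage list 11 genes were tested and 0 called in edgeR (0 of them with an unadjusted p under 0.05, and 0 in DESeq2), with FOXA1, a transcription factor of the prostate, at a log2 difference of -0.11. The defining prostate genes TMPRSS2, HOXB13, KLK4 and ACP3 had at most 8 counts in any library of either label. Of 30 HOX genes tested, whose pattern records the site of origin of a tissue, 0 were called (1 at an unadjusted p under 0.05, 0 by DESeq2), and of 6 neuroendocrine genes 0 were called (0 and 0). Of 18 luminal genes 0 were called (5 higher and 0 lower at an unadjusted p under 0.05, 2 by DESeq2), with ST14 (the protease matriptase), ELF3 (an epithelial ETS factor) and CLDN7 (a tight junction claudin) at log2 differences of 0.62, 0.88 and 0.63. ELF3 and CLDN7 overlapped between labels, with DU145 EphA2 OE replicate 2 the highest DU145-labelled library in both.

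Among 16 mesenchymal genes 0 were called (2 higher and 3 lower at an unadjusted p under 0.05, 1 by DESeq2). TAGLN, an actin-binding protein, and AXL, a receptor kinase, lay lower without overlap (log2 differences -0.57 and -0.25), and S100A4 lay higher without overlap (0.53). Of 44 interferon-stimulated genes 12 lay above 0 and 32 below, while 50.3% of all genes tested lay above 0, and their median log2 difference was -0.24 against 0.0017 over all genes. None of the 44 was called in edgeR (1 higher and 14 lower at an unadjusted p under 0.05, 3 by DESeq2). IFI6 stood at 6.90 to 8.87 CPM in PC3-labelled libraries against 34.6 and 71.3 CPM in DU145 EphA2 OE and 7.20 and 9.55 CPM in DU145 control, and only the overexpression group lay apart. OAS1 and IFIT5 were highest in DU145 EphA2 OE replicate 2 as well, at 4.69 and 25.5 CPM, while GBP2 lay higher in PC3-labelled libraries (log2 difference 0.59, with overlap).

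Lists of general growth and metabolism had medians near 0. Of 32 cell cycle genes 26 lay lower in PC3-labelled libraries (median log2 difference -0.11), of 25 cholesterol synthesis genes 22 lay higher (median 0.07), and of 34 genes of the ATF4 and amino acid list 22 lay higher (median 0.08). In edgeR and in DESeq2 0 members of these 3 lists were called, with 5, 0 and 2 at an unadjusted p under 0.05. SLC2A1, a glucose transporter, lay lower without overlap, at 82.3 to 99.8 CPM in PC3-labelled libraries against 108 to 114 CPM in DU145-labelled ones (log2 difference -0.31, adjusted p = 0.317). AKR1C1, a reductase of the NRF2 programme, stood at 4.78 to 9.03 CPM in PC3-labelled libraries against 7.15 and 12.8 CPM in DU145 EphA2 OE and 26.4 and 22.0 CPM in DU145 control. GFAP, a glial filament protein from the list of other cell types, stood at 1.73 to 3.36 CPM in PC3-labelled libraries against 3.63 and 2.46 CPM in DU145 EphA2 OE and 12.8 and 12.8 CPM in DU145 control. In both the DU145 control pair was the highest, the labels overlapped and there was no call (adjusted p = 0.211 and 0.297). In edgeR 0 members were called among 17 Eph receptors and ephrins (1 higher and 1 lower at an unadjusted p under 0.05, 1 in DESeq2), 20 HLA genes (1 and 2, 0 in DESeq2), 25 genes of NF-kB and inflammation (1 and 3, 0 in DESeq2) and 27 of hypoxia and glycolysis (2 and 1, 1 in DESeq2). The same held for 22 metallothionein and NRF2 genes (0 and 1, 1 in DESeq2), 7 cancer-testis genes (1 and 0, 0 in DESeq2) and 13 genes of other cell types (0 and 2, 1 in DESeq2). IL6 and CXCL1, inflammatory cytokines, stood highest in DU145 EphA2 OE, IL6 at 3.88 to 6.79 CPM in PC3-labelled libraries against 9.74 and 23.2 CPM in DU145 EphA2 OE and 5.11 and 7.47 CPM in DU145 control. Over the whole list of other cell types the summed level was 277 to 407 CPM in PC3-labelled libraries against 285 to 549 CPM in DU145-labelled ones, most of it from F13A1, a coagulation factor subunit of platelets and macrophages, at 242 to 361 CPM against 233 to 492 CPM. MITF, a regulator of melanocytes, stood at 21.1 to 38.5 CPM in PC3-labelled libraries against 36.8 to 42.2 CPM in DU145-labelled ones. Both overlapped between labels and were not called. The blood marker PTPRC, the endothelial PECAM1 and the neural crest factor SOX10 had at most 15 counts in any library.

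Across genes, libraries of one label were hardly more alike than libraries of different labels. Over the 15434 genes with a mean of at least 1 CPM, Pearson's r of log2 CPM was 0.9591 to 0.9687 between replicates of 1 group, 0.9529 to 0.9617 between groups of one label and 0.9535 to 0.9613 between labels; these r are across genes, which are not independent replicates. Of the total variance 19.2% lay between labels, 32.6% between groups of one label and 48.2% between replicates, which per degree of freedom is a mean square of 0.308, 0.261 and 0.193. The first principal component held 19.97% of the variance and set the labels apart without overlap, with 74.5% of its variance between labels, and components 2 to 7 each mixed them. When the 47 genes of the basal and squamous, cornification and keratinization lists were left out, a choice made after these genes were seen, the labels overlapped on all 7 components. The first then had 5.72% of its variance between labels, the second 51.7% and the fourth 23.7%, and on the second the overlap came from PC3 EphA2 KO replicate 1 alone. Of the total variance 15.7% still lay between labels without these genes. Among the 8261 genes with a mean of at least 20 CPM the mean square between labels was 0.0635, against 0.0839 between groups of one label and 0.0643 between replicates. In these abundant genes the mean square between labels was no larger than that between replicates.

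**Figure D4:**
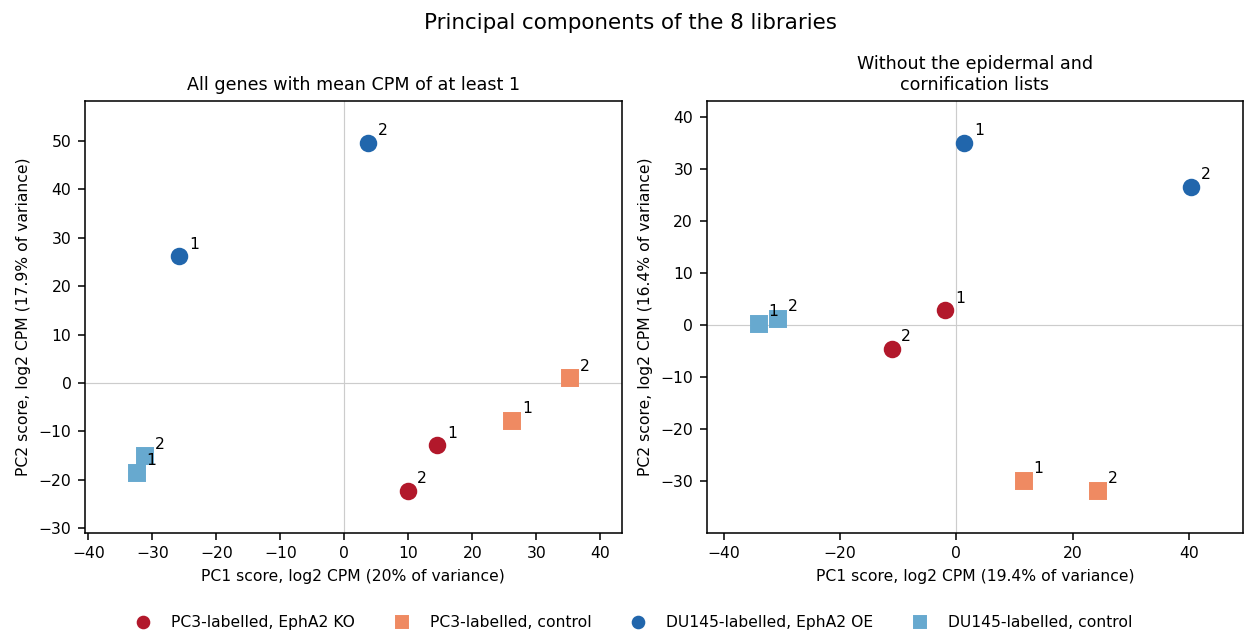
Scores of the 8 libraries on the first 2 principal components of log2 CPM, with the share of variance on each axis, the replicate number beside each point, all genes with a mean of at least 1 CPM on the left and the same without 47 epidermal and cornification genes on the right. On the left the PC3-labelled libraries lie to the right of the DU145-labelled ones on the first component, and on the right panel the labels overlap on both, on the second component through PC3 EphA2 KO replicate 1.

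Medians over whole chromosomes and over windows of 50 genes stayed near 0 between the labels; genes with a mean under 1 CPM, most of the 25 genes with counts under one label among them, do not enter these medians. The median log2 difference of the genes on a chromosome, with a mean of at least 1 CPM, ran from -0.03 to 0.02 over 23 chromosomes. In 295 windows of 50 neighbouring genes the medians ran from -0.09 to 0.11, and 0 windows lay beyond 0.2 in either direction. Differences within a label were wider, from -0.20 to 0.09 by chromosome between EphA2 KO and control in PC3-labelled libraries and from -0.06 to 0.11 between EphA2 OE and control in DU145-labelled ones, with chromosome 18 at both extremes. The standard deviation of the chromosome medians was 0.0131 between labels, 0.0536 for EphA2 KO against control and 0.0351 for EphA2 OE against control. The label comparison averaged groups on each side, while those within a label set single groups against each other, so these spreads are not like measures.

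**Figure D5:**
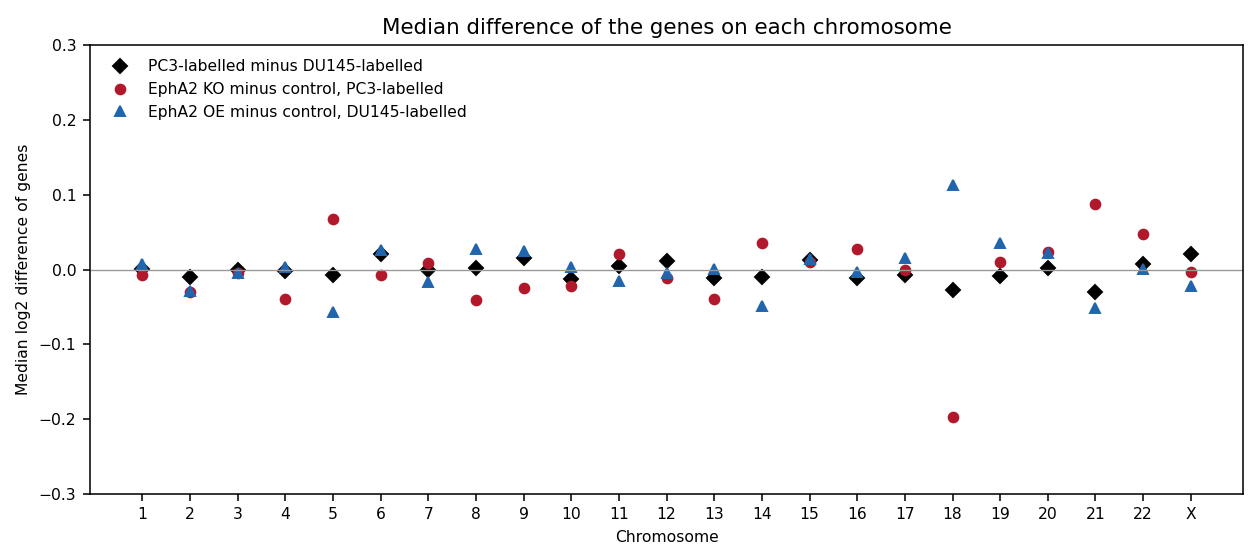
Median log2 difference of the genes on each chromosome for the label comparison (black diamonds), EphA2 KO minus control in PC3-labelled libraries (red circles) and EphA2 OE minus control in DU145-labelled libraries (blue triangles). The label comparison stays between -0.03 and 0.02, and chromosome 18 shows the lowest knockout and the highest overexpression median.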

How the data were processed

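The libraries were poly(A)-selected, dUTP-stranded and sequenced as paired ends, per the labels' protocols. Cutadapt 1.9, HISAT2 2.2.1, StringTie 2.1.6, DESeq2, edgeR and the build GRCh38 are listed in the submitters' processing notes, without roles, and strand use in counting is unknown from the sources used here. Each gene has whole-number raw counts as deposited, which were tested, and FPKM as the authors deposited them (scaled for gene length and depth), used for levels per length and for 2 alternatives.

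The fit was made in edgeR 4.0.16 under R 4.3.3, after filterByExpr (minimum count 10, total 15), TMM factors and 4 residual degrees of freedom. CPM are counts over TMM-scaled totals. Named genes were the called genes without overlap, the next by p and by size without overlap, genes altered in the lines, EPHA2, CDH1 and the leading genes of each list; the 5 called genes with overlap were named after their values were seen, and some genes that the rule names are not reported here. Members, lists and tests were chosen with earlier results of these data known. On simulated data for the label comparison (21656 genes) the fit recovered 52% of 100 genes made to differ by 1 and 78% of 100 made to differ by 2 on the log2 scale. Among the genes left unchanged, 9 were called. The changed genes were drawn from those with a mean fitted count above 20, so recovery at lower counts is not covered. Control columns were placed with the lines by convention, and 0 columns were left unmapped. Alternatives were DESeq2 1.42.0, upper-quartile factors, other filters and designs, limma 3.58.1 on log2(FPKM + 1) and log2(FPKM + 0.1), the controls of the lines exchanged, and each library left out. Likeness without the epidermal genes and at a mean of at least 20 CPM was added after seeing the data. Counting floors cover counting error only.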

Additional observations from a re-analysis of the deposited data

Results flagged for a closer look

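In 9 of 91 groups of 4 libraries examined for the named genes, 1 library lay far from the other 3. A chance rate of about 1 group in 20 holds for 4 values of a single normal distribution. Each group here joins manipulated and control libraries on the CPM scale, so that rate need not apply. BHLHB9 stood at 0.0522 CPM in DU145 control replicate 1, below the other DU145-labelled libraries. LINC01128 stood at 20.8 CPM in DU145 EphA2 OE replicate 1, above them. ELF3 (33.0 CPM), OAS1 (4.69 CPM) and IFIT5 (25.5 CPM) were set apart by DU145 EphA2 OE replicate 2, the highest DU145-labelled library in all 3. Among the PC3-labelled libraries, PC3 control replicate 1 stood apart in ARMCX5-GPRASP2 (0.0991 CPM, the highest), S100A8 (0.0661 CPM, the only one with counts) and AXL (825 CPM, the lowest), and PC3 control replicate 2 in CDKN2A (170 CPM, the lowest).

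The response to EphA2 knockout within PC3-labelled libraries differed from the response to EphA2 overexpression within DU145-labelled ones in 4 called genes, by the test of the difference itself in edgeR. The log2 knockout response minus the overexpression response was 1.83 for UHMK1, -1.75 for LASP1, 1.92 for EPDR1 and 1.61 for STX6.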

How the results depend on the processing

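The count of 16 called genes was 222 with DESeq2, 9 with the replicate block, 7 with the controls exchanged, 27 and 41 with limma on log2(FPKM + 1) and log2(FPKM + 0.1), and 14 to 45 with 1 library left out (45 and 43 without DU145 EphA2 OE replicate 1 and 2, 32 without DU145 control replicate 1, 25 without PC3 EphA2 KO replicate 1). Genes called without overlap numbered 138, 6, 4, 18 and 29 in the same order, and 9 to 26 with 1 library left out. Counts within a label moved likewise: knockout 190 with DESeq2, 0 with the replicate block (edgeR, 1327 at an unadjusted p under 0.05), 13 exchanged, 12 with log2(FPKM + 0.1) and 6 to 27 with 1 library left out; overexpression 309 with DESeq2, 4 without a filter, 3 with the replicate block and 3 to 376 with 1 library left out (376 without its replicate 1). Deviations of same-numbered libraries had correlations of -0.0373 to 0.217 between groups. Those above the threshold of 0.1 were 0.217 for PC3 EphA2 KO with DU145 control and 0.165 for PC3 control with DU145 EphA2 OE. Within a label they were -0.0158 for PC3 and -0.0222 for DU145. Whether the numbers pair samples is thus not settled. At 5 and 0.5 CPM, 1 gene was on in DU145-labelled libraries only, and with a mean of at least 10 CPM the highest window median was 0.054. The cause of these shifts was not tested.

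Exchanging the controls puts libraries of both lines on each side, and these log2 differences turned sign: NEAT1 -0.30, SMN2 -0.020, DIAPH2-AS1 -3.72, SESN3 -0.17, MAOB -0.33, BHLHB9 -0.60, LINC01128 -0.49, C20orf204 -0.81, AL121845 -0.59, KRT6A 0.074, ARMCX5-GPRASP2 0.13, SPRR1B 0.049, KRT13 0.92, PALM2AKAP2 1.07, LASP1 -0.88, MAPK14 -0.69, STX6 0.80, CTNNA1 0.24, BAX -0.053, ELF3 -0.73, CLDN7 -0.79, TAGLN 0.30, AXL 0.12, GFAP 0.995, GBP2 -0.11, SLC2A1 0.10 and AKR1C1 0.34. Between control groups alone EPDR1 (-0.21), STK11 (0.14) and CDKN2A (-0.044) turned sign, and between manipulated groups alone STX6 (0.13), CTNNA1 (0.22) and CLDN7 (-0.16). CTNNA1 was 0.0034 in both limma fits, and with 1 library left out CTNNA1 (-0.060 to 0.019) and STK11 (-0.179 to 0.023) crossed 0. The other named genes turned sign in none of the alternatives that gave them a value. Genes under about 0.05 CPM are at the floor of this depth.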

Other observations

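Chromosome 18 held the widest regional differences, and they lay within the labels. A window of 50 neighbouring genes with a mean of at least 1 CPM, chr18:50967991-79679358, lay on the long arm. Its genes had a median log2 level relative to the mean of the 8 libraries of -0.23 and -0.22 in PC3 EphA2 KO and 0.22 and 0.19 in PC3 control. In DU145 EphA2 OE the medians were 0.26 and 0.02, and in DU145 control -0.05 and -0.05. Both knockout libraries were the lowest of the 8. The neighbouring window, chr18:34493290-50947875, followed at -0.09 and -0.14 in PC3 EphA2 KO and 0.14 and 0.12 in PC3 control, and at 0.23 and 0.07 in DU145 EphA2 OE and -0.12 and -0.04 in DU145 control. Between the labels these windows did not pass 0.2.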
